A study of Mus musculus with 12 samples.

Results

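The 36 genes described here encode basement membrane and matrix glycoproteins: laminin chains, nidogens, heparan and chondroitin sulfate proteoglycans, fibronectin, matricellular proteins and the microfibril and elastic fibre proteins. They were taken by gene name from the tables of the series, in all 4 groups of genotype and RNA fraction. The list was chosen with earlier results of these data known, so its counts are not those of a blind choice. Of the 36 genes, 31 had a row in both tables, out of 13027 genes in the knockout table, 13331 in the wild-type table and 12590 in both. The tables used here hold no row for Lama4, Fbn2, Mfap2, Mfap4 and Eln. RNA was sequenced from C2C12 cells, an established mouse myoblast line, either lacking Ddx27 (genotype Ddx27-/-, called knockout here) or wild type. Ddx27 encodes a nucleolar DEAD-box RNA helicase. From each genotype, RNA of purified polysomes (mRNA loaded with several ribosomes) and total cellular RNA were compared, to ask which transcripts are over- or under-represented on polysomes and how the knockout alters this. The labels list 3 samples in each of the 4 groups, and values were analysed for 11 libraries: 3 knockout polysomal, 2 knockout total, 3 wild-type polysomal and 3 wild-type total. The labels give no clone, age in culture, drug or RNA selection for any group. Whether the samples of a group are separate cultures is not stated, so each p-value measures only the spread between these samples, which may be technical.

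Laminins are trimers of an alpha, a beta and a gamma chain that form the polymer sheet of the basement membrane. Nidogens and perlecan tie this sheet to the collagen IV network, and around muscle fibres the laminin alpha 2 chain links it to the cell surface through dystroglycan and integrins. Fibronectin, tenascin and thrombospondins belong to the interstitial or provisional matrix, while fibrillins, fibulins and emilins build microfibrils and elastic fibres. All of these proteins are made on ribosomes bound to the endoplasmic reticulum and then secreted.

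Levels are the authors' normalised read counts, a number of reads times 1 factor per library, scaled separately in each genotype's table. Each library held between 13683674 and 27347878 reads, and the floor used for a value of 0, set at 3 reads, lay between 0.0989 and 0.257 on this scale. The polysomal libraries stood apart from the total RNA libraries and from each other: 4 gene models that collect ribosomal RNA sequence, picked on their share in these libraries, took 23.1%, 32.7% and 0.385% of the reads of knockout polysomal libraries 1 to 3, and 5.91%, 14.5% and 0.674% of those of wild-type polysomal libraries 1 to 3. In total RNA they took at most 0.135%. Ddx27 itself was listed at 31.3 to 52.6 in knockout polysomal and 39.7 to 45.0 in knockout total RNA, against 139 to 215 in wild-type polysomal and 139 to 150.4 in wild-type total RNA. Its transcript was thus lower but not absent in the knockout, with a log2 fold change of -2.08 ± 0.22 in polysomal and -1.63 ± 0.24 in total RNA (SE, limma adjusted p = 0.000194 and 0.00186). Of 8 myoblast markers, 7 were in the knockout table and all 8 in the wild-type table. Among them Myod1, the myogenic transcription factor, was at 0 to 0.0861 in knockout polysomal and 0.363 to 1.13 in knockout total RNA, against 69.7 to 95.5 and 137 to 177 in the wild-type fractions, while Myf5 was at 71.4 to 123 in all 5 knockout libraries and at 56.3 to 88.3 in the wild type. None of 6 endothelial markers was in either table. The 2 leukocyte markers in the tables summed to 6.25 to 9.996 in the knockout libraries and 2.57 to 3.54 in the wild-type libraries.

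Transcripts of the matrix glycoprotein genes were under-represented on polysomes in both genotypes. The 31 genes together took 0.549%, 0.608% and 0.932% of the reads in the knockout polysomal libraries, against 2.05% and 1.79% in knockout total RNA. In the wild type they took 0.740%, 0.462% and 0.853% of polysomal reads, against 2.07%, 2.15% and 2.21% of total RNA reads. Every polysomal library was below every total RNA library of its genotype. These sums rest largely on a few genes. Spp1 made up 42.7% to 58.3% of the members' normalised read counts in knockout total RNA and 25.1% to 26.1% in wild-type total RNA. Fn1 made up 8.18% to 13.8% and 28.3% to 31.1%. The widest 95% Wilson interval of these shares spanned 0.0131 percentage points, which covers counting error only. With the ribosomal RNA models left out of the denominator, the shares were 0.714%, 0.903% and 0.936% in knockout polysomal libraries and 0.787%, 0.540% and 0.859% in wild-type polysomal libraries. In bulk RNA, fewer cells of a type and less RNA per cell cannot be told apart.

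**Figure D1:**
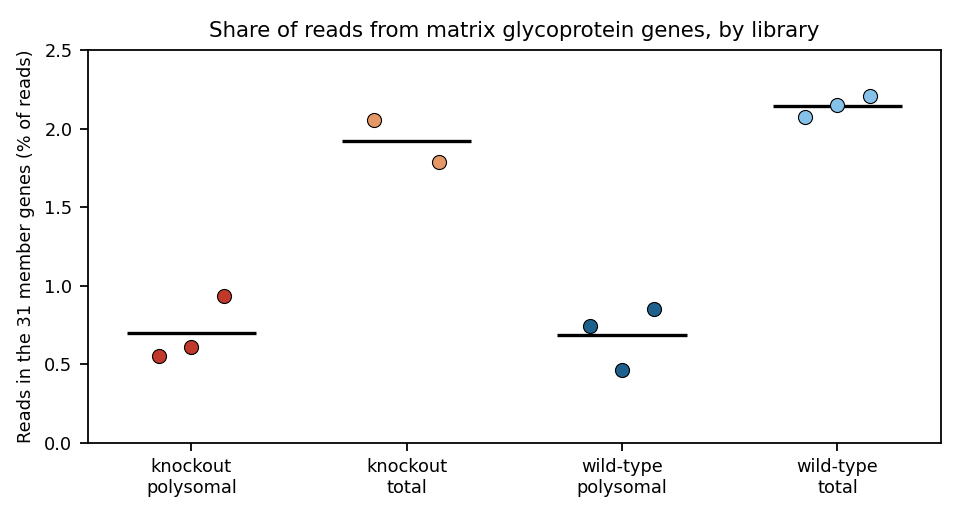
Percent of reads in the 31 matrix glycoprotein genes (vertical axis) for each library (points) of the 4 groups, with the group mean as a line. The polysomal libraries lie between 0.462% and 0.932% and the total RNA libraries between 1.79% and 2.21%.

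Gene by gene, the comparison used limma's linear model on the log2 values, taken after adding 1, and a Benjamini-Hochberg adjusted p under 0.05 over all genes tested. The added 1 shrinks the fold changes of genes with low values. In the knockout, 28 of the 31 genes passed the filter on low values (at least 1 in at least 3 libraries), 12 fell in polysomal RNA and none rose, where 1.85% of all 12070 genes tested fell and 0.911% rose. Lama2, Postn and Tgfbi did not pass that filter in the knockout. In the wild type, all 31 genes passed the filter, 26 fell and none rose, where 13.8% of 12380 genes fell and 8.89% rose. Mfap5, counted in the 26, and Efemp1, not called, passed the filter there through total RNA alone. The median log2 fold change of the member genes was -1.19 in the knockout, against 0.04 over all genes, and -1.57 in the wild type, against -0.02 over all genes. In the knockout, the polysomal libraries were all below the total RNA libraries for 24 genes (18.3% of all genes) and all above them for 1 gene, Mfap5 (22.3%). In the wild type they were all below for 28 genes (27.7%) and all above for none (23.2%). No member rose at an unadjusted p under 0.05, with edgeR or with DESeq2 in either genotype, though the shares of all genes were not tabulated there. All 12 genes that fell in the knockout were among the 26 that fell in the wild type. With 26 of 31 members lower there, most of any 12 members would overlap. The overlap over all genes was not tabulated. At an adjusted p (FDR) of 0.05, the authors' deposited tables have 18 of the 31 genes lower in knockout polysomal RNA, where 4.84% of their genes are, and 25 lower in wild-type polysomal RNA, where 14.3% are. They have none of the 31 higher, where 3.42% of the knockout table's genes and 13.0% of the wild-type table's genes are.

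The knockout count rested on few libraries. It was 0 without knockout total library 1, 1 (Nid2) without knockout total library 2, 1 (Nid2) without knockout polysomal library 3 and 16 without knockout polysomal library 1. The wild-type count was 15 whichever of the 3 wild-type total libraries was left out, and 13 of its 26 calls held whichever library was left out. The member median relative to the mean of the total RNA libraries was -1.38, -0.97 and -1.20 in the knockout polysomal libraries and -1.30, -1.54 and -1.51 in the wild-type polysomal libraries. It was negative in each of these libraries. They differed in ribosomal RNA sequence, whose part in the medians was not tested. Under quantile normalization the knockout calls of Hspg2, Vcan and Mfge8 were lost, as were the wild-type calls of Sparc, Spp1 and Mfap5. That of Mfge8 in the knockout was also lost with edgeR. Leaving out the polysomal libraries rich in ribosomal RNA sequence leaves 1 knockout polysomal library, assumed to vary like the other groups. In that setting Mfge8 had a knockout log2 fold change of -0.92 (limma adjusted p = 0.251) and Spp1 one of -1.57 (limma adjusted p = 0.237), so both calls were lost. Several marker lists moved the same way, where 1.85% of all genes fell in knockout polysomal RNA and 13.8% in wild-type polysomal RNA. Of the myotube markers, 3 of 7 tested fell in knockout polysomal RNA, and in wild-type polysomal RNA 10 of 11 fell and 1 rose, Tnnt2, by 1.56. Of the fibroblast markers 2 of 3 fell in the knockout and 4 of 4 in the wild type, and of the myoblast markers 2 of 6 fell in the knockout and 6 of 8 in the wild type. Of the nuclear RNAs 1 of 3 fell in the knockout and 2 of 3 in the wild type. None of the adipocyte, osteoblast or cartilage, and leukocyte markers tested (4 in the knockout, 3 in the wild type) was called with limma. The myotube markers in the tables, 11 of 12, summed to 80.8 to 151 in knockout polysomal and 272 to 354 in knockout total RNA, and to 191 to 409 in wild-type polysomal and 456 to 1078 in wild-type total RNA. The fibroblast markers, 3 of 7 in the knockout table and 4 of 7 in the wild-type table, summed to 396 to 516 in knockout polysomal and 1094 to 1544 in knockout total RNA, and to 205 to 569.7 in wild-type polysomal and 1408 to 1810 in wild-type total RNA. The nuclear RNAs summed to 151 to 1009.99 in knockout polysomal and 602 to 749.6 in knockout total RNA, and to 209 to 433 in wild-type polysomal and 592 to 696 in wild-type total RNA. Their part in the result was not tested.

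**Figure D2:**
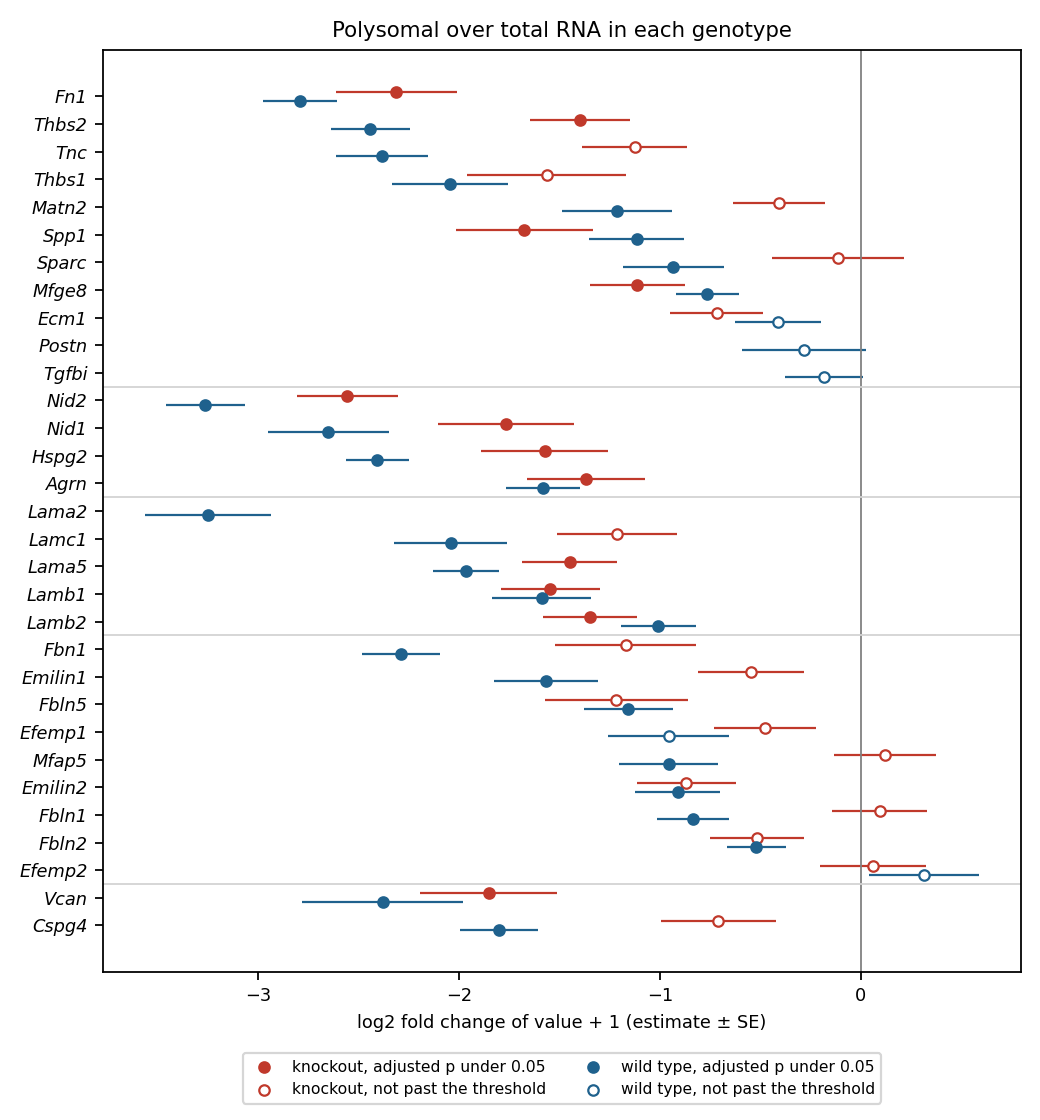
Estimated change on the log2 scale between polysomal and total RNA (horizontal axis, polysomal over total, with its SE) for each matrix glycoprotein gene (rows, grouped by role), knockout in red and wild type in blue, filled where the adjusted p is under 0.05. All filled points lie left of 0, 12 in the knockout and 26 in the wild type.

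The laminin chain genes fell in 3 of 4 tests in the knockout and in all 5 in the wild type. Lamb1 (chromosome 12, 31265146 to 31329644, GRCm38.p6), which encodes the beta 1 chain, had values of 55.3, 75.8 and 51.4 in knockout polysomal RNA and 182 and 172 in knockout total RNA. Wild-type Lamb1 had 142, 80.6 and 144 in polysomal and 354, 353 and 364 in total RNA. The fractions did not overlap in either genotype, and the log2 fold change was -1.55 ± 0.25 (SE) in the knockout (limma adjusted p = 0.0224) and -1.59 ± 0.25 in the wild type (limma adjusted p = 0.00657). Lama5 (chromosome 2, 180176373 to 180225904), the alpha 5 chain, had 33.6, 35.7 and 33.5 in knockout polysomal RNA and 112 and 80.8 in knockout total RNA. Wild-type Lama5 had 61.3, 79.0 and 71.8 in polysomal RNA and 273, 275 and 285 in total RNA. Its fold changes were -1.45 ± 0.24 in the knockout and -1.96 ± 0.16 in the wild type (log2, SE). Lamb2, the beta 2 chain, fell by 1.35 ± 0.23 on the log2 scale in the knockout and by 1.01 ± 0.19 in the wild type. Lamc1, the gamma 1 chain shared by most laminins, fell by 2.04 ± 0.28 in the wild type and had a log2 fold change of -1.21 ± 0.30 in the knockout, which did not pass the threshold (limma adjusted p = 0.0688).

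Lama2 (chromosome 10, 26981285 to 27617191), the muscle laminin alpha 2 chain mutated in a congenital muscular dystrophy, was almost absent from the knockout. Its values were 0, 0.257 and 0.129 in knockout polysomal RNA and 1.32 and 0.162 in knockout total RNA. Only knockout total library 1 was well above the floor of 3 reads. In the wild type they were 2.61, 0.645 and 1.75 in polysomal RNA and 19.7, 23.4 and 26.98 in total RNA. The wild-type fractions were far apart, with a log2 fold change of -3.25 ± 0.31 (SE, limma adjusted p = 0.00167), close to that of Nid2 among the members. No polysomal fold change is given for Lama2 in the knockout.

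All 4 genes for laminin linkers and basement membrane heparan sulfate proteoglycans fell on polysomes in both genotypes. Nid2 (nidogen 2; chromosome 14, 19751257 to 19811787) had 70.0, 62.0 and 63.5 in knockout polysomal and 476 and 315 in knockout total RNA. Wild-type Nid2 had 31.1, 25.7 and 25.5 in polysomal and 289.6, 314 and 219 in total RNA. Its log2 fold change was -2.56 ± 0.25 in the knockout (limma adjusted p = 0.00422), the largest of the members tested there, and -3.26 ± 0.20 in the wild type (limma adjusted p = 0.000808). Its call in the knockout was lost without knockout total library 1. Nid1 (nidogen 1; chromosome 13, 13437602 to 13512275) had 31.3, 64.4 and 44.6 in knockout polysomal RNA and 196 and 123 in knockout total RNA. Wild-type Nid1 had 149.8, 76.1 and 168 in polysomal RNA and 729.7, 778 and 855 in total RNA. The log2 fold changes of Nid1 were -1.77 ± 0.34 in the knockout and -2.65 ± 0.30 in the wild type.

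Hspg2 (chromosome 4, 137468751 to 137570630), which encodes perlecan, had 122, 185 and 143 in knockout polysomal RNA and 596 and 328 in knockout total RNA. Wild-type Hspg2 had 165, 162 and 189 in polysomal RNA and 909, 941 and 893 in total RNA. The wild-type total RNA values lay within a narrow range and the 2 knockout total values did not, so the log2 fold change had an SE of 0.31 in the knockout (-1.57) and 0.16 in the wild type (-2.41). Agrn, which encodes agrin, the nerve-derived and muscle proteoglycan that clusters acetylcholine receptors, fell by 1.37 ± 0.29 on the log2 scale in the knockout (limma adjusted p = 0.0490) and by 1.58 ± 0.18 in the wild type (limma adjusted p = 0.00268).

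Of the 11 genes for fibronectin and matricellular or adhesive glycoproteins, 4 of the 9 tested fell on polysomes in the knockout and 8 of 11 fell in the wild type. Fn1 (chromosome 1, 71585473 to 71653280), which encodes fibronectin, had 382, 404 and 375 in knockout polysomal RNA and 2556 and 1452 in knockout total RNA. Wild-type Fn1 had 803, 948 and 945 in polysomal RNA and 5669, 6108 and 6925 in total RNA. Total RNA was several times higher than polysomal RNA in both genotypes, with log2 fold changes of -2.31 ± 0.30 (limma adjusted p = 0.0128) in the knockout and -2.79 ± 0.19 (limma adjusted p = 0.000919) in the wild type. Thbs2 (thrombospondin 2; chromosome 17, 14665500 to 14694262) had 24.2, 33.2 and 26.6 in knockout polysomal and 83.6 and 66.9 in knockout total RNA. Wild-type Thbs2 had 63.2, 42.0 and 54.2 in polysomal and 275, 280.4 and 313 in total RNA. It fell by 1.40 ± 0.25 in the knockout and by 2.44 ± 0.20 in the wild type on the log2 scale. Its paralog Thbs1 fell by 2.05 ± 0.29 in the wild type and had a log2 fold change of -1.56 ± 0.40 in the knockout (limma adjusted p = 0.0760).

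Tnc (tenascin C; chromosome 4, 63959785 to 64047015), an adhesion-modulating protein of developing and injured tissue, had 23.1, 32.4 and 22.8 in knockout polysomal RNA and 64.9 and 50.7 in knockout total RNA. Wild-type Tnc had 204, 134 and 227 in polysomal RNA and 884, 948 and 1069 in total RNA. Tnc fell by 2.38 ± 0.23 on the log2 scale in the wild type (limma adjusted p = 0.00167). In the knockout its log2 fold change was -1.12 ± 0.26 (limma adjusted p = 0.0597), with no overlap between the fractions. Spp1 (osteopontin, a secreted integrin ligand; chromosome 5, 104435111 to 104441053) had 2577, 2895 and 3051 in knockout polysomal RNA and 7913 and 10347 in knockout total RNA. Wild-type Spp1 had 2718, 1848 and 3054 in polysomal RNA and 5129, 5237 and 5817 in total RNA. Spp1 fell by 1.67 ± 0.34 in the knockout (limma adjusted p = 0.0422) and by 1.12 ± 0.24 in the wild type (limma adjusted p = 0.0176). The wild-type call was lost under quantile normalization.

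Mfge8, the milk fat globule protein that bridges apoptotic cells and integrins, fell by 1.11 ± 0.24 in the knockout and by 0.76 ± 0.16 in the wild type. Sparc, a collagen-binding matricellular protein, fell by 0.93 ± 0.25 in the wild type and had a log2 fold change of -0.11 ± 0.33 in the knockout, where the fractions overlapped. Matn2 (matrilin 2) fell by 1.21 ± 0.27 in the wild type and had -0.41 ± 0.23 in the knockout. Ecm1, a secreted protein that binds perlecan, passed the threshold in neither genotype, with -0.72 ± 0.23 in the knockout and -0.41 ± 0.21 in the wild type. Postn (periostin; chromosome 3, 54359267 to 54391041) had 0.885, 1.71 and 1.51 in knockout polysomal, 0.989 and 0.486 in knockout total, 5.64, 2.42 and 4.77 in wild-type polysomal and 4.02, 5.01 and 6.84 in wild-type total RNA. The wild-type fractions of Postn overlapped, with a log2 fold change of -0.28 ± 0.31. Tgfbi, also a periostin-family protein, was below 2.3 in every library and had -0.18 ± 0.19 in the wild type.

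**Figure D3:**
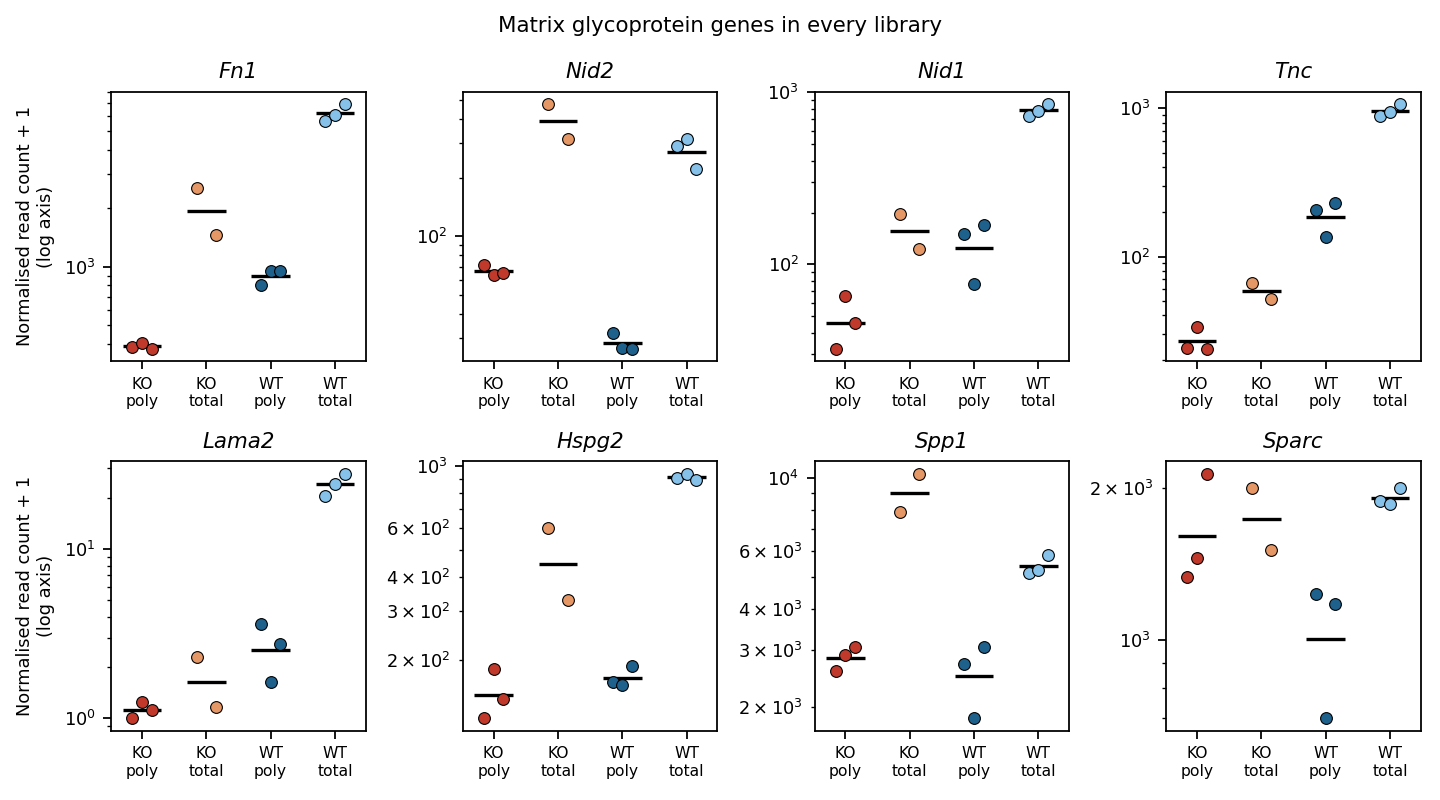
Normalised read count plus 1 (vertical log axis, a scale of its own in each panel) of 8 matrix glycoprotein genes in each library (points) of knockout (KO) and wild-type (WT) polysomal and total RNA, with the group mean of the log values as a line. Fn1 is at 375 to 404 in knockout polysomal RNA and at 5669 to 6925 in wild-type total RNA, while the Sparc fractions overlap in the knockout.

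Of the elastic fibre and microfibril genes, 0 of 9 were called lower in the knockout, where 1.85% of all genes were. In the wild type 7 of 9 were, where 13.8% of all genes were, with Mfap5 counted though it passed the filter through total RNA alone. These counts come from fits with unlike numbers of libraries and do not measure a difference between the genotypes. In the knockout 3 were lower at an unadjusted p under 0.05, 0 with edgeR, and with DESeq2 the 3 genes Fbn1, Fbln5 and Emilin2. The shares of all genes lower by these 3 criteria were not tabulated, so these counts have no background. Fbn1 (chromosome 2, 125300594 to 125506485), which encodes fibrillin 1, the microfibril backbone, had 12.8, 24.7 and 18.0 in knockout polysomal and 56.0 and 30.7 in knockout total RNA. Wild-type Fbn1 had 42.4, 28.9 and 41.0 in polysomal and 179, 188 and 187 in total RNA. Its log2 fold change was -1.17 ± 0.35 in the knockout (limma adjusted p = 0.109) and -2.29 ± 0.19 in the wild type (limma adjusted p = 0.00115), with no overlap between fractions in either. Emilin1 (chromosome 5, 30913387 to 30921279), an elastin-associated glycoprotein, had 66.4, 41.7 and 46.3 in knockout polysomal and 70.4 and 78.1 in knockout total RNA. Wild-type Emilin1 had 25.4, 23.2 and 15.4 in polysomal and 74.1, 71.8 and 48.9 in total RNA. It fell by 1.57 ± 0.26 in the wild type and had -0.55 ± 0.26 in the knockout.

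The fibulins are calcium-binding proteins of basement membranes and elastic fibres. Fbln1 (chromosome 15, 85205949 to 85286294) had 26.8, 30.6 and 34.3 in knockout polysomal, 30.0 and 26.9 in knockout total, 47.4, 54.9 and 60.2 in wild-type polysomal and 87.1, 95.8 and 109 in wild-type total RNA. Its fractions overlapped in the knockout (log2 fold change of 0.10 ± 0.24), and it fell by 0.83 ± 0.18 in the wild type. Fbln2 (chromosome 6, 91212460 to 91272540) had 43.6, 53.8 and 39.9 in knockout polysomal, 67.6 and 63.3 in knockout total, 145, 147 and 156 in wild-type polysomal and 209, 222 and 213 in wild-type total RNA. Fbln2 had a log2 fold change of -0.52 in each genotype, with an SE of 0.23 in the knockout (limma adjusted p = 0.232) and 0.15 in the wild type (limma adjusted p = 0.0427), and the wild-type call was lost with the length trend removed and with edgeR. Fbln5 fell by 1.16 ± 0.22 in the wild type and had -1.22 ± 0.36 in the knockout, and Emilin2 fell by 0.91 ± 0.21 in the wild type and had -0.87 ± 0.25 in the knockout. Efemp2 (fibulin 4, needed for elastic fibre assembly) was the member with a positive wild-type fold change, 0.32 ± 0.27, and had 0.06 ± 0.26 in the knockout.

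The remaining microfibril genes were low. Efemp1 (fibulin 3; chromosome 11, 28853154 to 28926743) had 2.52, 2.31 and 2.88 in knockout polysomal, 4.19 and 3.72 in knockout total, 0.830, 0.725 and 0 in wild-type polysomal and 1.27, 1.88 and 2.53 in wild-type total RNA. Mfap5 (a microfibril-associated glycoprotein; chromosome 6, 122513584 to 122529290) had 1.97, 1.54 and 1.59 in knockout polysomal, 1.42 and 1.54 in knockout total, 0.207, 0.806 and 0.469 in wild-type polysomal and 2.59, 1.51 and 1.59 in wild-type total RNA. In the wild type both genes were below 1 in every polysomal library, so they passed the filter only through total RNA, where they were higher. Their wild-type log2 fold changes are therefore descriptions, -0.96 ± 0.25 (SE) for Mfap5 and -0.96 ± 0.30 for Efemp1. The call of Mfap5, counted among the 26 lower members, was lost under quantile normalization.

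Both chondroitin sulfate proteoglycan genes fell in the wild type and 1 of them in the knockout. Vcan (chromosome 13, 89655309 to 89743027), which encodes versican, the large hyaluronan-binding proteoglycan, had 44.5, 92.6 and 66.5 in knockout polysomal and 298 and 189 in knockout total RNA. Wild-type Vcan had 94.7, 31.7 and 90.9 in polysomal and 312, 364 and 354 in total RNA. The fractions did not overlap, though wild-type polysomal library 2 was well below the other two. Vcan fell by 1.85 ± 0.34 in the knockout, and its log2 fold change in the wild type was -2.38 ± 0.40 (limma adjusted p = 0.00821). Cspg4, which encodes the membrane proteoglycan NG2, fell by 1.80 ± 0.19 in the wild type and had -0.71 ± 0.29 in the knockout (limma adjusted p = 0.189).

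Matrix glycoprotein genes are long, and among them the polysomal fold change was lower for longer genes. Over all genes tested, Pearson's r between log2 length and the log2 fold change was 0.08 in the knockout and -0.43 in the wild type. The members' median length in the tables was 5818 bases, from 1715 (Spp1) to 15319 (Vcan), against 3636 bases over all genes tested in the wild type. Across all genes of the wild type, values were lower for longer genes in the polysomal libraries relative to the mean of total RNA, with log2 slopes of -0.23, -0.53 and -0.14 for each doubling in libraries 1 to 3. The same slopes were -0.16, 0.17 and 0.11 in the knockout polysomal libraries. Among the members, Pearson's r between log2 length and the log2 fold change was -0.45 in the knockout (28 genes) and -0.66 in the wild type (31 genes), a description across genes that share libraries. With the length trend of each library removed, the member median was -1.25 in the knockout and -1.16 in the wild type. Genes as long as the middle of the members had a median of 0.10 in the knockout (4736 genes) and -0.23 in the wild type (5072 genes).

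**Figure D4:**
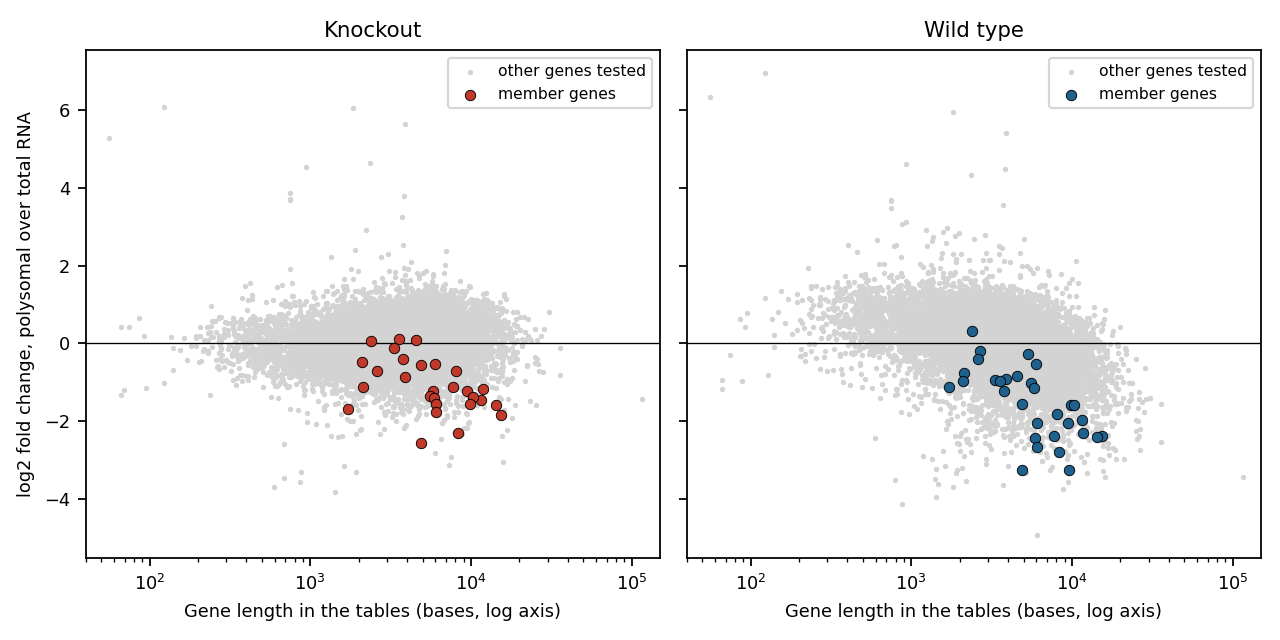
Polysomal over total RNA as a log2 fold change (vertical axis) against gene length in bases (horizontal log axis) for all genes tested (grey) and the matrix glycoprotein genes (coloured), knockout left and wild type right. The members' medians are -1.19 in the knockout and -1.57 in the wild type, against 0.10 and -0.23 for genes as long as the middle of the members.

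The difference between the genotypes in polysomal over total RNA was tested as an interaction over 12460 genes. None of the 31 members passed the limma threshold, where 0.0482% of genes passed as lower and 0.201% as higher in the knockout. At an unadjusted p under 0.05 there were 11 members, all higher in the knockout, where 9.71% of genes were lower and 11.0% higher. EdgeR called none, and DESeq2 called 5, all higher (Tnc, Thbs2, Fbln1, Cspg4 and Mfap5). The share of all genes that DESeq2 called was not tabulated, so its count has no background beside it. The median difference was 0.49 against 0.05 over all genes, and 8 of the 31 estimates were negative. Genes as long as the middle of the members had a median of 0.30, and the member median was 0.29 with the length trend removed. Across all genes, Pearson's r between log2 length and this difference was 0.50. No difference is given for Lama2, which passed the filter through its wild-type libraries and mostly lay near the floor in the knockout. The members' counts and medians of the interaction include it. Of the other members, Tnc had the largest estimate, 1.22 ± 0.33 (limma adjusted p = 0.107). Fbln1 passed without the polysomal libraries rich in ribosomal RNA sequence (1.06, limma adjusted p = 0.0451), where the knockout polysomal RNA is 1 library. For the elastic fibre genes, the differences ran from -0.29 to 1.08 and none passed the threshold with limma, while Fbln1 and Mfap5 passed with DESeq2 (DESeq2 adjusted p = 0.0225 and 0.0377).

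Knockout and wild-type cells also differed in the levels of these transcripts within each fraction. For these comparisons a median-of-ratios factor over the 12590 shared genes brought the 11 libraries to a common scale. In total RNA, 13 of 31 members fell in the knockout and 1 rose, where 5.79% of 12460 genes fell and 4.71% rose. The knockout libraries were all below the wild type for 16 members (33.2% of all genes) and all above for 9 (31.2%). In polysomal RNA, 9 members fell and 4 rose, where 3.5% of genes fell and 4.82% rose. There the knockout libraries were all below for 12 members (11.0%) and all above for 8 (12.6%). The median log2 fold change of the members was -0.46 in total RNA, against -0.0098 over all genes and -0.20 over genes as long as the middle of the members. In polysomal RNA it was 0.02, against -0.0015 and 0.05. With the length trend removed the member medians were -0.26 in total RNA and -0.098 in polysomal RNA. Lama2 and Tgfbi reached 1 in only 1 knockout library each, so they entered these tests through the wild type. Both are among the 13 lower members in total RNA. The 2 fractions' comparisons share no library, but they share 1 fit and its spread. Myod1, at or below 1.13 in all knockout libraries, and 5 of 7 myoblast markers that fell in total RNA moved with these differences, while 1, Myf5, rose by 0.98. On the separate scale of each genotype, not the common scale, 7 myoblast markers were summed in the knockout and 8 in the wild type. They summed to 775 to 995 in knockout polysomal RNA and 1191 to 1281 in wild-type polysomal RNA, and to 1480.5 to 1669.7 in knockout total RNA and 3631 to 4949 in wild-type total RNA. Their part in the result was not tested.

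The total RNA count of lower members was 8 without knockout total library 2, and 10 to 12 without any other library. The call of the 1 member that rose, Spp1, was lost whichever library was left out. The polysomal count of lower members was 4 without knockout polysomal library 1, 3 without knockout polysomal library 3, 5 without wild-type polysomal library 1 and 4 without wild-type polysomal library 3. The count of higher members was 2 without knockout polysomal library 3. Calls that held whichever library was left out were those of Tnc, Fbn1, Thbs2, Fbln1, Fbln2, Fn1 and Lama5 in total RNA. In polysomal RNA they were those of Tnc, Fbln2, Lama5, Emilin1 and Nid2. That of Lama2 in total RNA also held, from knockout values mostly near the floor.

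**Figure D5:**
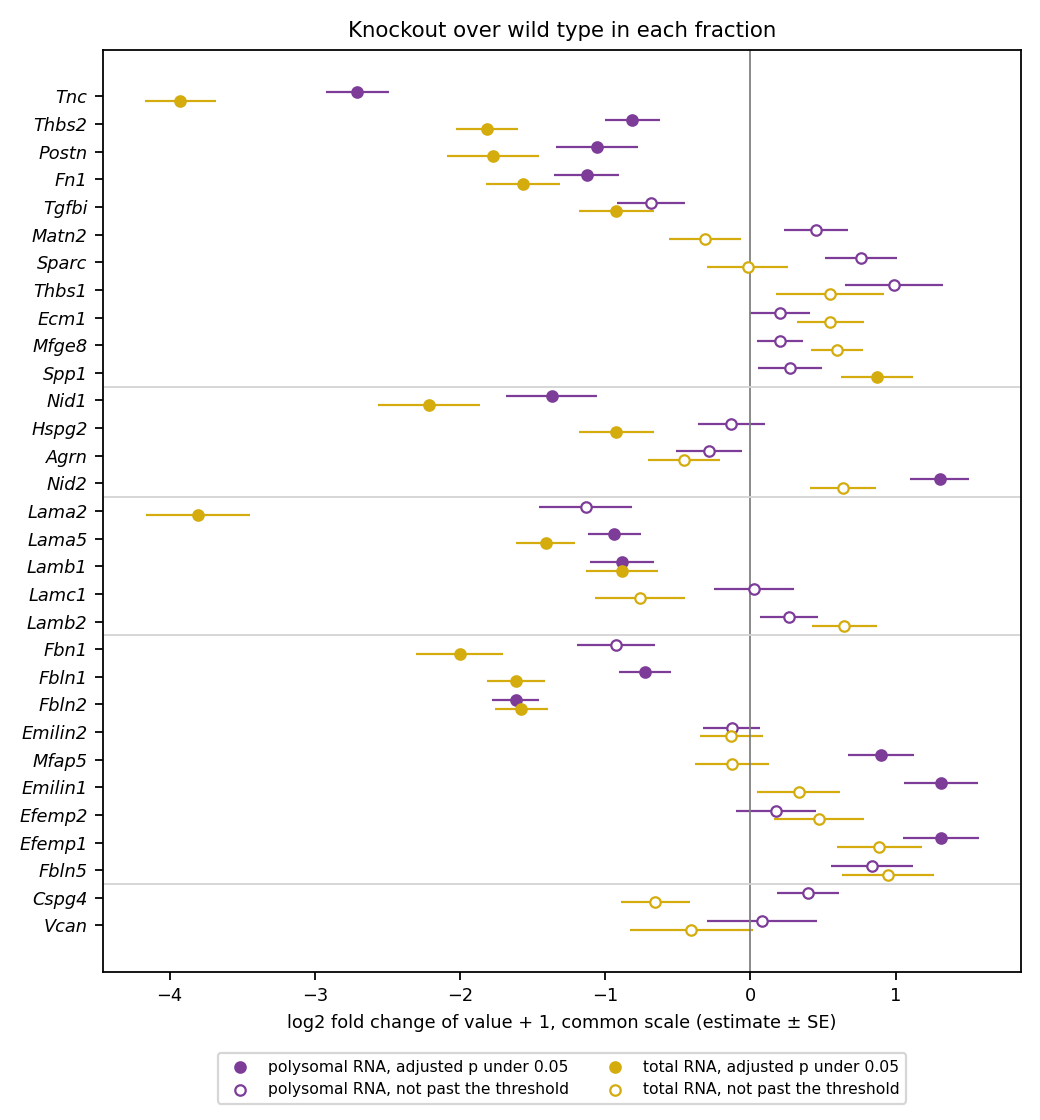
Estimated log2 fold change of knockout over wild type (horizontal axis, with its SE) for each matrix glycoprotein gene (rows, grouped by role) in polysomal RNA (purple) and total RNA (yellow), filled where the adjusted p is under 0.05. Tnc lies furthest left, at -2.71 in polysomal and -3.93 in total RNA, and Nid2, Efemp1 and Emilin1 lie right of 0, filled in polysomal RNA.

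Among the laminins and their linkers, Lama2 and Nid1 had the lowest log2 fold changes of knockout over wild type. On the common scale Lama2 averaged 0.777 ± 0.858 (SD, n = 2) in knockout total RNA and 22.5 ± 3.64 (SD, n = 3) in wild-type total RNA. Its log2 fold change there was -3.80 ± 0.36 (SE). That estimate is a description, as Lama2 passed the filter through its wild-type libraries and mostly lay near the floor in the knockout. In polysomal RNA the log2 fold change of Lama2 was -1.13 ± 0.32, not past the threshold (limma adjusted p = 0.0516). Whether it passed varied between the alternative settings. Nid1 was at 205 and 129 in knockout total RNA, against 701, 748 and 829 in wild-type total RNA, and fell by 2.21 ± 0.35 (limma adjusted p = 0.00291). In polysomal RNA Nid1 fell by 1.37 ± 0.32, with 32.1, 66.5 and 44.8 in the knockout and 140.0, 77.6 and 158 in the wild type. Its paralog Nid2 moved the other way in polysomal RNA. Nid2 was at 71.8, 64.0 and 63.7 in knockout polysomal RNA, against 29.1, 26.2 and 24.0 in wild-type polysomal RNA, and rose by 1.30 ± 0.20 (log2, SE, limma adjusted p = 0.00251). In total RNA Nid2 was at 499 and 331 in the knockout and at 278, 301 and 212 in the wild type, above in every library but not past the threshold (0.64 ± 0.22, limma adjusted p = 0.0894). Lama5 fell in both fractions, by 1.41 ± 0.20 in total and by 0.94 ± 0.18 in polysomal RNA, as did Lamb1, by 0.89 ± 0.25 and by 0.89 ± 0.22. Hspg2 fell by 0.92 ± 0.26 in total RNA and had -0.13 ± 0.23 in polysomal RNA. The total RNA calls of Lamb1 and Hspg2 were lost with edgeR and with the length trend removed, and that of Hspg2 also under quantile normalization. Lamb2 had 0.65 ± 0.22 in total and 0.26 ± 0.20 in polysomal RNA, neither past the threshold.

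Tnc and Lama2 had the lowest log2 fold changes of the members in total RNA. On the common scale Tnc was at 68.1 and 53.2 in knockout total RNA, against 849, 911 and 1036 in wild-type total RNA, and fell by 3.93 ± 0.24 (log2, SE, limma adjusted p = 3.97e-06). In polysomal RNA it was at 23.7, 33.5 and 22.9 in the knockout, against 191, 137 and 214 in the wild type, and fell by 2.71 ± 0.22 (limma adjusted p = 3.61e-05). The genotypes were far apart in both fractions. Fn1 fell by 1.57 ± 0.25 in total and by 1.13 ± 0.23 in polysomal RNA, a polysomal call lost under quantile normalization, and Thbs2 by 1.81 ± 0.21 and by 0.81 ± 0.19. Postn fell by 1.77 ± 0.32 and by 1.06 ± 0.28 from low levels. Tgfbi had -0.92 ± 0.26 in total RNA, a description, as it entered the test through the wild type. Its call was lost with edgeR and whichever total RNA library was left out. Spp1 was at 8299.5 and 10851 in knockout total RNA, against 4924, 5031 and 5637 in wild-type total RNA, and rose by 0.87 ± 0.25 (limma adjusted p = 0.0458), a call lost under quantile normalization and with the length trend removed. In polysomal RNA Spp1 had 0.27 ± 0.22. Thbs1 had 0.55 ± 0.37 in total and 0.99 ± 0.33 in polysomal RNA, neither past the threshold.

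In total RNA, Spp1 had a larger share of the members' normalised read counts than Fn1 in the knockout and a smaller share in the wild type. In polysomal RNA the share of Spp1 was above that of Fn1 in both genotypes. There Spp1 made up 38.6% to 41.9% in the knockout and 32.9% to 39.3% in the wild type, and Fn1 4.75% to 6.20% and 11.4% to 16.9%. Spp1 made up 42.7% to 58.3% of the members' normalised read counts in knockout total RNA, against 25.1% to 26.1% in wild-type total RNA. Fn1 made up 8.18% to 13.8% in knockout total RNA, against 28.3% to 31.1% in wild-type total RNA. Per kilobase of gene length, Spp1 was the highest member in knockout total RNA at 5324 normalised read counts, followed by Sparc at 525, Thbs1 at 282 and Fn1 at 242. The order in wild-type total RNA was Spp1 at 3145, Fn1 at 754, Sparc at 574 and Thbs1 at 204. The lowest members in wild-type total RNA were Mfap5 at 0.530, Tgfbi at 0.839, Efemp1 at 0.898 and Postn at 0.991.

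The elastic fibre and microfibril genes moved in both directions between genotypes. Fbn1 fell by 2.0 ± 0.30 in total RNA (limma adjusted p = 0.00189) and had -0.93 ± 0.27 in polysomal RNA (limma adjusted p = 0.0562). Fbln1 fell by 1.61 ± 0.20 in total and by 0.72 ± 0.18 in polysomal RNA, and Fbln2 by 1.58 ± 0.18 and by 1.62 ± 0.16. The polysomal call of Fbln1 was lost without the libraries rich in ribosomal RNA sequence (-0.54, limma adjusted p = 0.148), with 1 knockout library left. Fbln2 was at 44.7, 55.6 and 40.1 in knockout polysomal RNA, against 136, 150.0 and 147 in wild-type polysomal RNA. Emilin1 rose by 1.31 ± 0.25 in polysomal RNA (limma adjusted p = 0.00947), where it was at 68.1, 43.0 and 46.4 in the knockout and at 23.8, 23.7 and 14.5 in the wild type. In total RNA Emilin1 had 0.33 ± 0.29. Efemp1 rose by 1.31 ± 0.26 in polysomal RNA, a call lost with edgeR, and had 0.89 ± 0.29 in total RNA. Mfap5 rose by 0.90 ± 0.23 in polysomal RNA, at values below 2.1, a call lost under quantile normalization. It was also lost without the libraries rich in ribosomal RNA sequence, where the estimate was 0.98 (limma adjusted p = 0.0861) and 1 knockout library was left. The fibulin relative Fbln5 had 0.95 ± 0.32 in total and 0.84 ± 0.28 in polysomal RNA, neither past the threshold. Vcan and Cspg4 passed the threshold in neither fraction, with -0.41 ± 0.42 and -0.65 ± 0.24 in total RNA.

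Upstream sequence is shown for 3 members that moved differently in knockout total RNA: Tnc with a large fall, Nid1 with a fall and Spp1 with a rise. Each is the 250 bases before the gene's start, 5′ to 3′ on the gene's strand, from RefSeq on GRCm38.p6, at chr4:64047016-64047265 (minus strand), chr13:13437352-13437601 (plus strand) and chr5:104434861-104435110 (plus strand). Capitals mark E-boxes (CANNTG), the letters that basic helix-loop-helix factors such as MyoD bind, and a match is a description, not a site.
Tnc: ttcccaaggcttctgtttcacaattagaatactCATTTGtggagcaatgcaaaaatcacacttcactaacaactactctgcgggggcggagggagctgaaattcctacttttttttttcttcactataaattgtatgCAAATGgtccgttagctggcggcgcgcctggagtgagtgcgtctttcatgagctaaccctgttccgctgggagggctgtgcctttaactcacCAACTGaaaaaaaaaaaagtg
Nid1: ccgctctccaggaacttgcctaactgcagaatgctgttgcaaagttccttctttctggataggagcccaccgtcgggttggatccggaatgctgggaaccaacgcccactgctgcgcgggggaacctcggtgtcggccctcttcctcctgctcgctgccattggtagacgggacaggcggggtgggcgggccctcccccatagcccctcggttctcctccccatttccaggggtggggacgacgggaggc
Spp1: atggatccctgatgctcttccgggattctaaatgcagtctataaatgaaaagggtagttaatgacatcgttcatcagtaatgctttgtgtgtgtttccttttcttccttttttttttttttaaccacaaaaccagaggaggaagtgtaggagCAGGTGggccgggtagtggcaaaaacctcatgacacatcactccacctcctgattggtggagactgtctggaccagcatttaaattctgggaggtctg
The Tnc window holds 3 E-boxes, the Nid1 window 0 and the Spp1 window 1. A TATAAA was in the Tnc and Spp1 windows, once each. Of the 31 members, 25 matched a promoter entry. Searched on both strands over 250 bases, an E-box was in 17 of the 25 (68.0%), against 66.0% of 27025 promoters, and in 7 of the 12 with an entry that fell in knockout total RNA. The AP-1 letters TGANTCA were in 2 of 25 (8.0%), against 6.87% of promoters, and TATAAA in 4 of 25 (16%), against 13.0%. The median GC content of the members' windows was 59.2%, against 52% over all promoters.

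Further lists of related genes, also chosen with earlier results of these data known, gave the following counts. Over all genes tested, 1.85% fell and 0.911% rose in knockout polysomal RNA, and 13.8% fell and 8.89% rose in wild-type polysomal RNA. Of 39 other basement membrane and matrix genes, 2 of 16 tested fell in knockout polysomal RNA, Col4a2 by 2.04 and Col4a1 by 1.57 on the log2 scale, the chains of the main collagen IV network. In wild-type polysomal RNA 11 of 19 fell, with Col4a2 by 2.16, Nov by 2.03 and Col4a5 by 2.01, and 2 rose, Ctgf by 1.66 and Cyr61 by 1.01, both secreted CCN proteins. Among elastic fibre enzymes and latent TGF-beta binding proteins, 4 of 13 fell in the knockout (Ltbp4, Fbln7 and Ltbp3 the most, by 1.96, 1.89 and 1.64) and 5 of 14 in the wild type (Fbln7, Ltbp4 and Ltbp1 the most, by 2.27, 1.71 and 1.59). Of the matrix receptors, 1 of 20 fell in the knockout, Itga7 by 1.56, the integrin alpha 7 chain that binds laminin in muscle. In the wild type 14 of 23 receptors fell, with Lrp4, the agrin receptor, by 2.52, Dag1 (dystroglycan) by 2.46 and Itga11 by 2.15. Among genes for translocation into the endoplasmic reticulum, none of 25 passed in the knockout (limma, with 1 lower and 2 higher at an unadjusted p under 0.05), and 1 fell (Srpr) and 3 rose (Srp9, Srp19 and Sec11c) of 25 in the wild type. The share of all genes at that unadjusted p in the knockout was not tabulated.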

How the data were processed

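RNA of purified polysomes and total RNA were measured by sequencing in knockout and wild-type C2C12 cells. The mouse build mm10 and the tools STAR, HTSeq and edgeR are named, per the submitters' processing notes. Versions, roles, order and whether counting used strand are not given in the sources used here. For each genotype the authors deposited a complete table with a signal per gene and library, here called a normalised read count. Divided by 1 factor for each library, 100% of the deposited values were whole reads within 0.001. The authors' tables also hold the log2 fold change between polysomal and total RNA and an adjusted p-value (FDR). Knockout columns match the labels' samples by group only, so their library numbers are those of table columns.

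The test was limma 3.58.1 in R 4.3.3, with a mean-variance trend, on log2 values with a pseudocount of 1 and Benjamini-Hochberg adjustment at 0.05. It was run on genes that reached 1 in 3 or more libraries of the fit. Polysomal and total RNA were compared within each table. The interaction and the comparisons between genotypes used 4 group means over 11 libraries, after scaling to 1 median of ratios over genes listed for both genotypes. The alternatives were a pseudocount of 0.5, no filter, quantile normalization, removal of each library's linear length trend, edgeR 4.0.16 and DESeq2 1.42.0 on the recovered reads, each library left out, and the replicate number as a block. Leaving out the 3 polysomal libraries rich in ribosomal RNA sequence was chosen after seeing the data. The scripts were tested on simulated data. Floors and intervals cover counting error only.

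The members and lists were chosen with earlier results of these data known. Values in every library were printed for up to 8 members with the largest change past the threshold in each comparison. All other members are given by fold change, and up to 3 genes per related list. Names, coordinates and upstream sequences came from RefSeq (GRCm38.p6, the mm10 build), where all 36 names matched. Genes that overlap others or share sequence with paralogs have uncertain levels.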

Additional observations from a re-analysis of the deposited data

How the results depend on the processing

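No member changed direction past the threshold under any alternative. The counts of members past the threshold that moved by over 1.5 times were these. With DESeq2, 19 members were lower in knockout polysomal RNA, 5 were higher in the knockout in the interaction, 5 were higher in knockout total RNA and 7 in knockout polysomal RNA relative to the wild type. The shares of all genes called under the alternatives were not tabulated. With the length trend removed, 1 was higher in the interaction and 2 in knockout total RNA, and with quantile normalization 0 were higher in knockout total RNA. Without the polysomal libraries rich in ribosomal RNA sequence, 2 were higher in the interaction and 7 in knockout total RNA. That setting leaves 1 knockout polysomal library, assumed to vary like the other groups, and these interaction counts include Lama2, whose knockout values lie near the floor. Leaving out 1 library at a time gave 0 to 16 lower members for knockout polysomal RNA, 15 to 28 for wild-type polysomal RNA, 0 to 1 higher in the interaction, 8 to 12 lower and 0 higher for knockout over wild type in total RNA, and 3 to 11 lower and 2 to 5 higher in polysomal RNA. Where this left 1 knockout total library, that library was assumed to vary like the other groups. With the replicate block, 22 members were lower in wild-type polysomal RNA, against 26 without it. Deviations of same-numbered wild-type libraries correlated at 0.21, -0.22 and -0.07, and not every library correlated best with its own number. With 3 libraries in each fraction, these correlations cannot show whether the numbers pair the samples. No paired analysis was possible for the other comparisons because the knockout columns carry no sample numbers. With 2 knockout total libraries, knockout polysomal calls rest on few degrees of freedom. Values under the floor of 3 reads, as for Lama2 in the knockout, limit what depth can show.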

Other observations

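Between genotypes, genes related to the members were also called, on the common scale. Over all genes, 5.79% fell and 4.71% rose in knockout total RNA, and 3.5% fell and 4.82% rose in knockout polysomal RNA. In the interaction 0.0482% passed as lower and 0.201% as higher. Of 17 other basement membrane and matrix genes tested, 4 fell in knockout total RNA, with Col18a1 by 1.47, Pxdn by 1.34 and Lamb3 by 1.30 on the log2 scale, and 2 rose, Smoc2 by 2.59 and Smoc1 by 1.14 (limma adjusted p = 0.000263 for Smoc2). In knockout polysomal RNA, Ctgf fell by 1.65, while Smoc2 rose by 2.08 and Egflam by 1.20. In the interaction Ctgf passed the threshold, with a difference of -1.61 ± 0.27 (SE, limma adjusted p = 0.0376).

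Of the elastic fibre enzymes and latent TGF-beta binding proteins, Loxl2, a collagen and elastin cross-linking oxidase, fell by 4.23 ± 0.27 in total RNA (limma adjusted p = 5.81e-06) and had a log2 fold change of -3.03 ± 0.25 in polysomal RNA (limma adjusted p = 3.61e-05), while Ltbp2 fell by 1.26 in total RNA. Of the matrix receptors, Itga11 fell by 2.38, Cd44 by 2.04 and Itga7 by 1.17 in total RNA, and Itgb5 rose by 0.93 and Itgb4 by 0.77. In polysomal RNA Itgb4 rose by 2.27, Lrp4 by 2.02 and Itgb5 by 0.93, while Itga7 fell by 0.77 and Itga5 by 0.57. Itga11, a collagen-binding integrin chain, passed the interaction threshold with a difference of 2.60 ± 0.40 (limma adjusted p = 0.0358). Its levels are not given here, and 20 of the 21 receptors listed for the knockout passed the filter on low values there. No alternative setting was tabulated for these related genes.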
